A study of Mus musculus with 64 samples.

Results

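Tsc22d3 and Sesn1 are 2 of the 5647 genes in a table of microglial transcript levels, and both are known as genes that hold stress and inflammatory signalling in check. They were chosen by name with their values in this table already known, so that their levels and fold changes are given as a description, without p-values. Microglia are the resident macrophages of the brain. They were sorted as CD11b+ CD45low cells that excluded 7-AAD, a dye that enters dead cells, from the papain-dissociated brain without the cerebellum of C57BL/6J mice, with 1 mouse per library. Of 64 libraries, 11 came from females injected with lipopolysaccharide (LPS), a bacterial membrane component that drives acute inflammation, at 3, 14 and 24 months (3, 5 and 3 libraries). By the authors' account LPS was injected into the peritoneum and the mice were killed 2 h later, so that the changes with LPS are those of an early time. PBS, the vehicle, was given to females at 3 months (4 libraries), 6 months (2), 9 months (3), 12 months (4), 14 and 16 months (5 each) and 24 months (3). Males received PBS at 3, 6 and 9 months (4 libraries each), 12 months (2), 16 months (4), 19 months (5) and 24 months (4). The female PBS libraries of 3, 14 and 24 months serve both as points of the ageing series and as controls of LPS, so these comparisons share libraries. Values are batch-adjusted FPKM, a length- and depth-scaled read density, deposited as whole numbers apart from 297 fractional values.

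Tsc22d3 encodes GILZ, the glucocorticoid-induced leucine zipper protein. Its gene is transcribed when glucocorticoid hormone binds its receptor, and the protein binds NF-kB and AP-1 subunits and limits the transcription of inflammatory genes. Sesn1 encodes sestrin 1, whose gene is a known target of p53 and of FoxO factors. Sestrins restrain mTORC1, the kinase complex that couples amino acids to growth, by binding GATOR2, and they help to keep peroxiredoxins reduced.

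Tsc22d3 lies on the minus strand at chrX:140539528-140600659 and Sesn1 on the plus strand at chr10:41809935-41908424 (GRCm38, GENCODE vM21). The annotation gives 6 transcripts of Tsc22d3, 3 of them protein-coding, and 3 transcripts of Sesn1, 2 of them protein-coding. The deposited values are per gene and do not say which start site was used. RefSeq gives 3 start sites for Tsc22d3 and 2 for Sesn1 on GRCm38.p6, and the windows of 250 bases before to 50 bases after each start were searched on both strands for the FoxO core TGTTTAC and the glucocorticoid receptor half-site TGTTCT. The windows are shown because these factors are the known inducers of the 2 genes. The first Sesn1 window, chr10:41810324-41810623, held 1 FoxO core, in capitals, 22 bases after the start.
Sesn1: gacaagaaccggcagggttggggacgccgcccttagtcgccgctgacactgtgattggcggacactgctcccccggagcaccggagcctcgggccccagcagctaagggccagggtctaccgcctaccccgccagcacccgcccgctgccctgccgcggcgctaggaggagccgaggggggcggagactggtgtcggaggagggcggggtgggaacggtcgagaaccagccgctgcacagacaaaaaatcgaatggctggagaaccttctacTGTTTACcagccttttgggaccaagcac
The Tsc22d3 window at the farthest start, chrX:140600473-140600772 on the minus strand, held 1 half-site, in capitals, on the strand of the gene.
Tsc22d3: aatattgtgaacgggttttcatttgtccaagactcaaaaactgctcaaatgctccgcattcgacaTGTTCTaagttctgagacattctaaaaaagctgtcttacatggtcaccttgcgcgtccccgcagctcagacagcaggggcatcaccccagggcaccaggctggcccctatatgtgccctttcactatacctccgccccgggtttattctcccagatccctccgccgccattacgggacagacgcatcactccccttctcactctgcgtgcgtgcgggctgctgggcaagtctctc
Neither motif was found in the second Sesn1 window, chr10:41887189-41887488, in the middle Tsc22d3 window, chrX:140548522-140548821, or in the window of the Tsc22d3 start at chrX:140542619-140542918, minus strand, the start nearest the 3′ end of the gene.
Tsc22d3: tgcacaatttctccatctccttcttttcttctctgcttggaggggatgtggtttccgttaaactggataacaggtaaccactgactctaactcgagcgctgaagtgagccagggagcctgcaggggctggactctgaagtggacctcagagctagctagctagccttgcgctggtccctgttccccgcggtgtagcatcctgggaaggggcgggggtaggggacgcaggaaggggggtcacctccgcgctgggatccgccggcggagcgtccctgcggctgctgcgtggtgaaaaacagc
Of 32851 promoter windows of this length, 3.65% held the FoxO core and 19.0% the half-site, so the half-site is a common match. A match of letters is a description and not a binding site, and the absence of these letters says nothing about the factor.

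All 12 microglia markers of the fixed list were measured, and P2ry12, a purinergic receptor that defines microglia in the brain, stood between 733 and 3514 in the 64 libraries. Neutrophil markers were present too, with a summed level of 15 of 19 listed genes between 499 and 32481. The Y-linked gene Eif2s3y was nearer to the other series in 16 libraries, 4 of them PBS libraries labelled female, 4 LPS libraries and 8 labelled male. Groups are therefore called by their labels, and the fitted changes from 3 months and with LPS that rest on these libraries are also given without them where libraries remain. They include 3 of the 4 libraries labelled female at 3 months and all 4 labelled male at 24 months. More than 5 genes were listed at 0 in 5 libraries, where the median library listed 1. These were LPS replicates 1 and 5 at 14 months and 2 at 24 months, and PBS replicates 1 at 9 months and 3 at 24 months, all labelled female. Of these, LPS replicate 5 of 14 months and LPS replicate 2 and PBS replicate 3 of 24 months were also nearer the other series in Eif2s3y. Leaving out either set thus removes these libraries in common. Values between 0 and 1 were missing from 21 libraries, among them all 5 labelled female at 16 months. In the male series they were missing from all libraries of 12, 16 and 24 months. They were also missing from all but replicate 1 of 19 months and from replicates 1 and 2 of 3 months. All male libraries of 6 and 9 months held such values. This property thus cannot be told apart from the age of 16 months in the female series. The same holds for the step from 9 to 12 months in the male series.

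Over all libraries Tsc22d3 averaged 199, rank 321 of 5647 genes, and Sesn1 averaged 62.5, rank 1202. Both values are per length and were far above the filter of 10 that the authors set. In bulk libraries a lower level can mean fewer expressing cells or less RNA per cell, and the 2 cannot be told apart.

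Tsc22d3 in PBS libraries labelled female was lower in the middle ages than at either end. The libraries read 281, 305, 237 and 298 at 3 months, 190 and 178 at 6 months, 100, 141 and 264 at 9 months and 241, 299, 173 and 248 at 12 months. They read 166, 225, 265, 138 and 109 at 14 months, 272, 421, 349, 416 and 121 at 16 months and 433, 315 and 181 at 24 months. The 2 libraries of 6 months lay below all 4 of 3 months, and the groups of every later age overlapped with 3 months. At 6 months 27.7% of all genes were lower than at 3 months without overlap, so such a gap was common. By mean level the ages ran from 16 months (316 ± 125, SD, n = 5) through 24 (310 ± 126, n = 3), 3 (280 ± 30.5, n = 4), 12 (240 ± 51.8, n = 4), 6 (184 ± 8.49, n = 2) and 14 (181 ± 63.7, n = 5) to 9 months (168 ± 85.3, n = 3). No neighbours in this order were separated by more than their SDs.

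On the log2(value + 1) scale the fitted change of Tsc22d3 from 3 months was −0.60 ± 0.41 at 6 months (SE), −0.84 ± 0.36 at 9, −0.24 ± 0.33 at 12, −0.70 ± 0.32 at 14, 0.05 ± 0.32 at 16 and 0.06 ± 0.36 at 24 months. The step between 14 and 16 months was 0.75 ± 0.30, with overlapping groups. The level at 24 months was thus close to that at 3 months in these libraries, with a wide spread, and it moved to −0.22 without replicate 1 and to 0.40 without replicate 3 of 24 months. At 16 months it ran between −0.08, without replicate 2 or 4 of that age, and 0.36, without replicate 5, and at 12 months it was −0.09 without replicate 3. Among libraries whose Eif2s3y value was nearer their own series, with 1 library left at 3 months whose spread is assumed to be like that of the other groups, the changes in order of age were −0.69, −0.94, −0.34, −0.79, −0.04 and 0.31 with SEs of 0.53 to 0.59. The median of all genes stood at −0.16 to −0.19 in the comparisons of 6 to 16 months with 3 months, and under median-ratio scaling, which removes that offset, the change at 12 months became −0.04. At 9 months the change was −0.53 without replicate 1, the library with 17 genes at 0, and −1.22 without replicate 3.

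**Figure D1:**
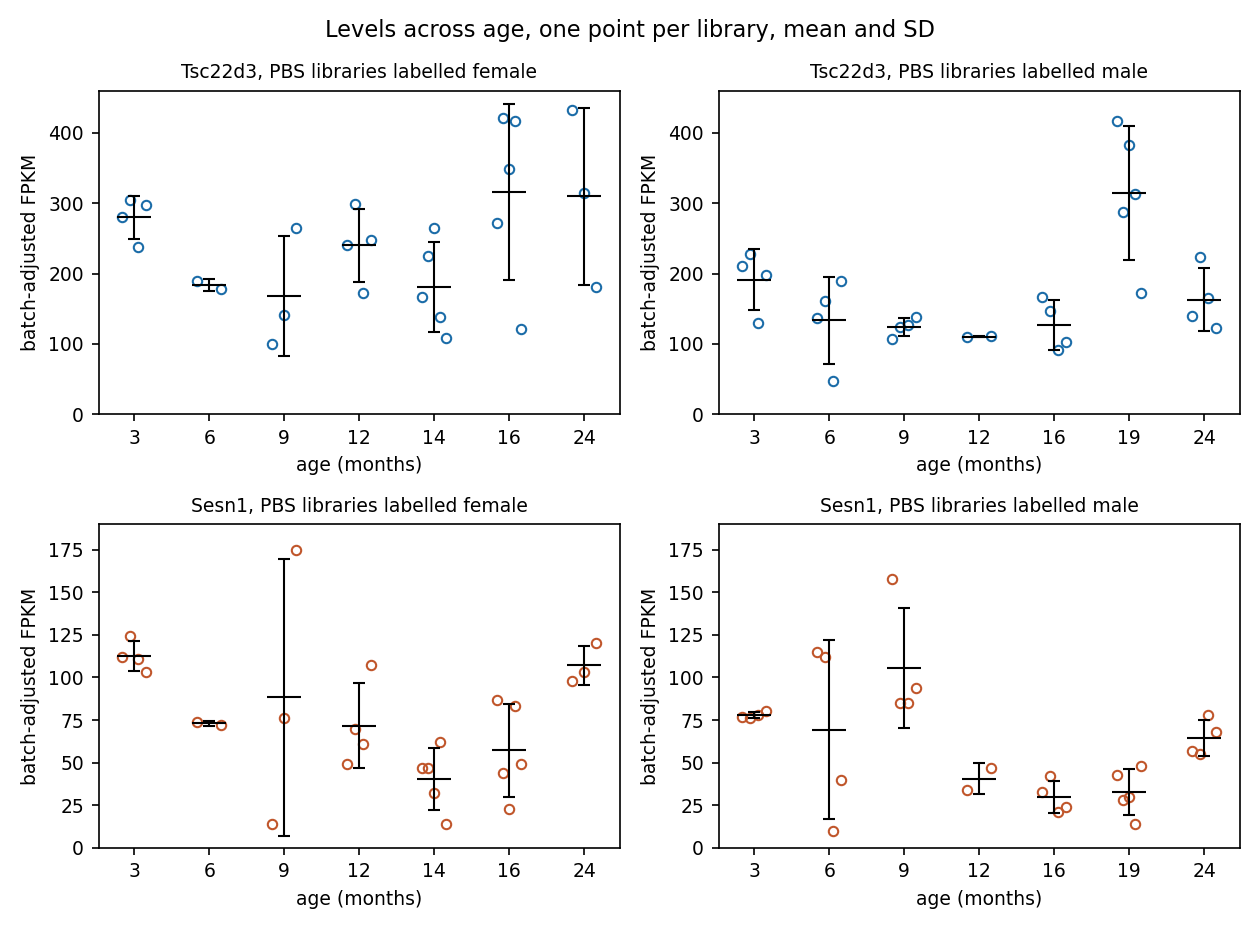
Levels of Tsc22d3 (top) and Sesn1 (bottom) in PBS libraries labelled female (left) and male (right) against age in months, as batch-adjusted FPKM, with 1 circle per library and bars for the mean and SD. Sesn1 was lowest at 14 months in the female series (mean 40.4) and at 16 months in the male series (mean 30.0), and Tsc22d3 was highest at 16 months (mean 316) and at 19 months (mean 314).

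In PBS libraries labelled male, Tsc22d3 stood low from 6 to 16 months and was highest at 19 months. The libraries read 210, 228, 130 and 198 at 3 months, 137, 161, 47 and 190 at 6 months, 107, 124, 127 and 138 at 9 months and 110 and 111 at 12 months. They read 166, 147, 91 and 103 at 16 months, 417, 287, 383, 313 and 172 at 19 months and 140, 224, 165 and 123 at 24 months. At 19 months 4 of 5 libraries were above every library of any other age of this series, and the fifth, replicate 5, was not. The share of all genes with such a pattern was not computed. The order of means ran from 19 months (314 ± 95.2, n = 5) through 3 (191.5 ± 42.8, n = 4), 24 (163 ± 44.2, n = 4), 6 (134 ± 61.8, n = 4), 16 (127 ± 35.6, n = 4) and 9 (124 ± 12.8, n = 4) to 12 months (110.5 ± 0.707, n = 2), each within its SDs of the next.

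The fitted changes of Tsc22d3 from 3 months were −0.65 ± 0.31 at 6, −0.60 ± 0.31 at 9, −0.76 ± 0.38 at 12, −0.60 ± 0.31 at 16, 0.68 ± 0.30 at 19 and −0.24 ± 0.31 at 24 months. At 12 months the libraries lay below all of 3 months, as 10.4% of all genes did. Between 16 and 19 months the change was 1.28 ± 0.30, and every 19-month library was above every 16-month library, which held for 1.28% of genes in that direction. Only 0.301% of genes had a larger absolute change in this step. At 24 against 19 months the change was −0.92 ± 0.30 with 1 library of 19 months inside the range of 24 months. Among libraries without values between 0 and 1, which are 4 of the 5 at 19 months, the step from 16 to 19 months was 1.17 ± 0.24 and the change from 3 to 19 months was 0.34 ± 0.30. Among libraries whose Eif2s3y value was nearer their own series the same changes were 1.42 ± 0.38 and 0.82 ± 0.38. At 9 months replicate 2 was the library nearer the other series, and without it the change from 3 months was −0.60 ± 0.34. Without replicate 3 at 6 months, which read 47, the change at 6 months was −0.22. The change at 24 months was −0.41 without replicate 3 and −0.14 without replicate 2 of 3 months, and −0.40 without replicate 2 and −0.11 without replicate 4 of 24 months.

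Sesn1 in PBS libraries labelled female was high at 3 and 24 months and lowest at 14 months. The libraries read 112, 124, 111 and 103 at 3 months, 74 and 72 at 6 months, 14, 76 and 175 at 9 months and 49, 70, 61 and 107 at 12 months. They read 47, 47, 32, 62 and 14 at 14 months, 87, 44, 23, 83 and 49 at 16 months and 98, 103 and 120 at 24 months. All libraries of 6, 14 and 16 months lay below all of 3 months, and the groups of 24 and 3 months overlapped. By mean level the order was 3 months (112.5 ± 8.66, n = 4), 24 (107 ± 11.5, n = 3), 9 (88.3 ± 81.2, n = 3), 6 (73.0 ± 1.41, n = 2), 12 (71.8 ± 25.0, n = 4), 16 (57.2 ± 27.2, n = 5) and 14 months (40.4 ± 18.2, n = 5), with neighbours within their SDs.

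The fitted changes of Sesn1 from 3 months were −0.61 ± 0.60 at 6, −0.95 ± 0.53 at 9, −0.70 ± 0.49 at 12, −1.60 ± 0.47 at 14, −1.11 ± 0.47 at 16 and −0.07 ± 0.53 at 24 months. Genes that were lower without overlap made up 27.7% of the table at 6 months, 11.6% at 14 months and 14.0% at 16 months against 3 months. Between 16 and 24 months Sesn1 was higher in the older libraries by 1.04 ± 0.51 with no overlap, as were 13.2% of genes. The median of all genes in that step was 0.16. At 9 months the 3 libraries spanned almost the whole range of the series, and without replicate 1 the change from 3 months turned to 0.040 ± 0.45, while without replicate 3 it was −1.74. At 24 months it stayed between −0.16 and −0.01 with any 1 library left out. At 14 months it was between −1.79 and −1.28 when any 1 library of either age was left out, and −1.48 ± 0.83 with the only 3-month library whose Eif2s3y value was nearer its own series. With that library the changes at the other ages were −0.49 ± 0.93 at 6, −0.82 ± 0.88 at 9, −0.57 ± 0.85 at 12, −0.99 ± 0.83 at 16 and −0.04 ± 0.93 at 24 months.

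In PBS libraries labelled male, Sesn1 was near or above its 3-month mean to 9 months apart from 2 low libraries of 6 months, was low from 12 to 19 months and was higher again at 24 months. The libraries read 77, 76, 78 and 80 at 3 months, 115, 112, 10 and 40 at 6 months, 158, 85, 85 and 94 at 9 months and 34 and 47 at 12 months. They read 33, 42, 21 and 24 at 16 months, 43, 28, 30, 14 and 48 at 19 months and 57, 55, 78 and 68 at 24 months. All 11 libraries of 12 to 19 months were below all libraries of 3, 9 and 24 months. These ages were pooled after the values were seen, and the share of all genes separated in this way was not computed. The order of means was 9 months (105.5 ± 35.3, n = 4), 3 (77.8 ± 1.71, n = 4), 6 (69.2 ± 52.6, n = 4), 24 (64.5 ± 10.7, n = 4), 12 (40.5 ± 9.19, n = 2), 19 (32.6 ± 13.4, n = 5) and 16 months (30.0 ± 9.49, n = 4). The gap between 24 and 12 months was the one place where neighbours in this order differed by more than their SDs.

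The fitted changes of Sesn1 from 3 months were −0.68 ± 0.46 at 6, 0.38 ± 0.46 at 9, −0.94 ± 0.56 at 12, −1.39 ± 0.46 at 16, −1.34 ± 0.44 at 19 and −0.28 ± 0.46 at 24 months. The 9-month libraries lay above all of 3 months, as did 4.96% of genes, and the libraries of 12, 16 and 19 months lay below all of 3 months, as did 10.4%, 6.06% and 0.903% of genes. Between 9 and 12 months the change was −1.33 ± 0.56 without overlap, a separation shared with 16.0% of genes. At 24 against 19 months it was 1.06 ± 0.44 without overlap, shared with 1.06% of genes. The change at 6 months rested on replicate 3, a library low in both genes, and turned to 0.046 ± 0.34 without it and to −1.09 or −1.07 without replicate 1 or 2. Among libraries whose Eif2s3y value was nearer their own series the changes at 9 and 19 months were 0.47 ± 0.52 and −1.39 ± 0.59. Among libraries without values between 0 and 1 the changes at 16 and 19 months were −1.37 ± 0.35 and −1.44 ± 0.35 and the change at 24 months was −0.26 ± 0.35. All 4 libraries of 24 months had an Eif2s3y value nearer the other series, so no value without such libraries could be had for that age.

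Both genes had lower means at 6 and at 12 months than at 3 months in each series. For Sesn1 in the libraries labelled male, that of 6 months rested on replicate 3. In the libraries labelled male their fitted changes from 3 months had opposite signs at 9 months, with −0.60 for Tsc22d3 and 0.38 for Sesn1, and at 19 months, with 0.68 for Tsc22d3 and −1.34 for Sesn1. In the libraries labelled female the gap was widest at 16 months, with 0.05 for Tsc22d3 and −1.11 for Sesn1.

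**Figure D2:**
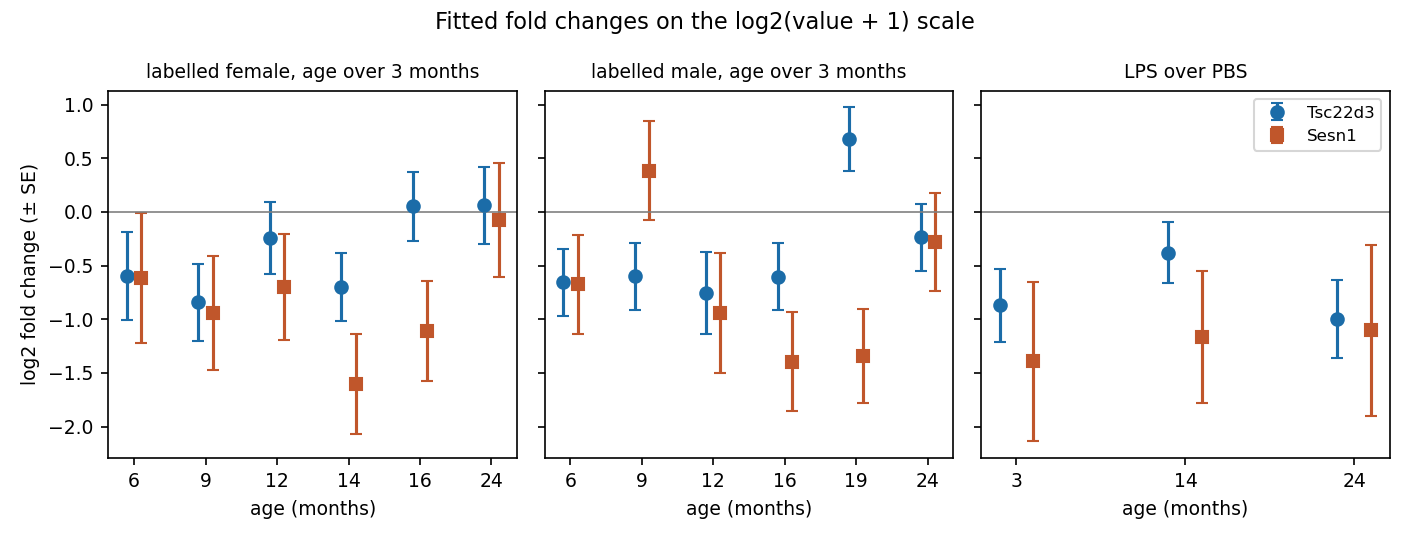
Fitted log2 fold changes ± SE of Tsc22d3 (circles) and Sesn1 (squares), for each age over 3 months in PBS libraries labelled female and male and for LPS over PBS at 3, 14 and 24 months. Sesn1 was lowest at 14 months in the female series (−1.60) and at 16 and 19 months in the male series (−1.39 and −1.34), where Tsc22d3 had −0.60 and 0.68.

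The levels of the 2 genes within groups are given as a description. After subtraction of group means, Pearson's r between them was 0.36 over the 26 PBS libraries labelled female (Spearman's rho 0.09), 0.46 over the 27 labelled male (rho 0.20) and −0.06 over the 11 LPS libraries (rho −0.10). Leaving out the 2 libraries farthest in Tsc22d3 gave r of 0.29, 0.24 and 0.16. The male value rested on replicate 3 of 6 months, without which r was −0.14 over 26 libraries. The LPS value depended on the libraries with many genes at 0. Over the 8 LPS libraries with at most 5 genes at 0, r was 0.79 (rho 0.62). Over the 24 such PBS libraries labelled female it was 0.24 (rho 0.13). This set of libraries was chosen after the data were seen.

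The genes most like each member were taken by the lower of its 2 correlations on the log2 scale over the 26 and the 27 PBS libraries, which share batch adjustment and age groups. For Tsc22d3 these were Stk17b, a kinase linked to apoptosis (0.66 and 0.62), Mrpl14, a protein of the mitochondrial ribosome (0.51 and 0.56), Tceal9 (0.51 and 0.49), Phyh, a peroxisomal enzyme of fatty acid oxidation (0.51 and 0.49), and Rnaseh2c, a subunit of ribonuclease H2 (0.51 and 0.48). For Sesn1 the likeness was closer, with Tmem168, a membrane protein (0.77 and 0.69), Tifa, an adaptor of NF-kB signalling (0.68 and 0.79), Pja2, a ubiquitin ligase (0.67 and 0.68), Asph, an aspartyl hydroxylase (0.73 and 0.65), and Tubgcp5, a component of the gamma-tubulin complex (0.65 and 0.77). Asph had a trough like that of Sesn1, with 68.0 ± 10.9 at 16 months and 127.8 ± 17.3 at 3 months in the male series (SD, n = 4 each). Between Tsc22d3 and Sesn1 themselves the correlations were 0.44 and 0.04.

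LPS libraries had lower Tsc22d3 at 3 months, and the same direction with overlap at 14 and 24 months. At 3 months Tsc22d3 read 182, 151 and 128 in LPS libraries, against 281, 305, 237 and 298 in PBS libraries, and the groups did not overlap. Groups with lower LPS values and no overlap were found for 21.7% of all genes at this age. At 14 months it read 174, 168, 109, 90 and 139 in LPS libraries, against 166, 225, 265, 138 and 109 in PBS libraries, with most values inside a common range. At 24 months it read 200, 68 and 224 in LPS libraries, against 433, 315 and 181 in PBS libraries, where 1 PBS library lay within the LPS range. At 3, 14 and 24 months the fitted changes were −0.87 ± 0.34, −0.38 ± 0.28 and −1.0 ± 0.36. That of 14 months was −0.24 without LPS replicate 4 and −0.22 without PBS replicate 3. That of 24 months was −0.46 ± 0.33 without LPS replicate 2, the library that read 68 and listed 22 genes at 0, and −1.34 without PBS replicate 3. Without all libraries of more than 5 genes at 0 it was −0.80 ± 0.32, and among libraries whose Eif2s3y value was nearer their own series the 3 changes were −1.09 ± 0.46, −0.40 ± 0.25 and −0.88 ± 0.46. That set leaves 1 PBS library at 3 months and 1 LPS library at 24 months, and the spread of each lone library is assumed to be like that of the other groups.

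**Figure D3:**
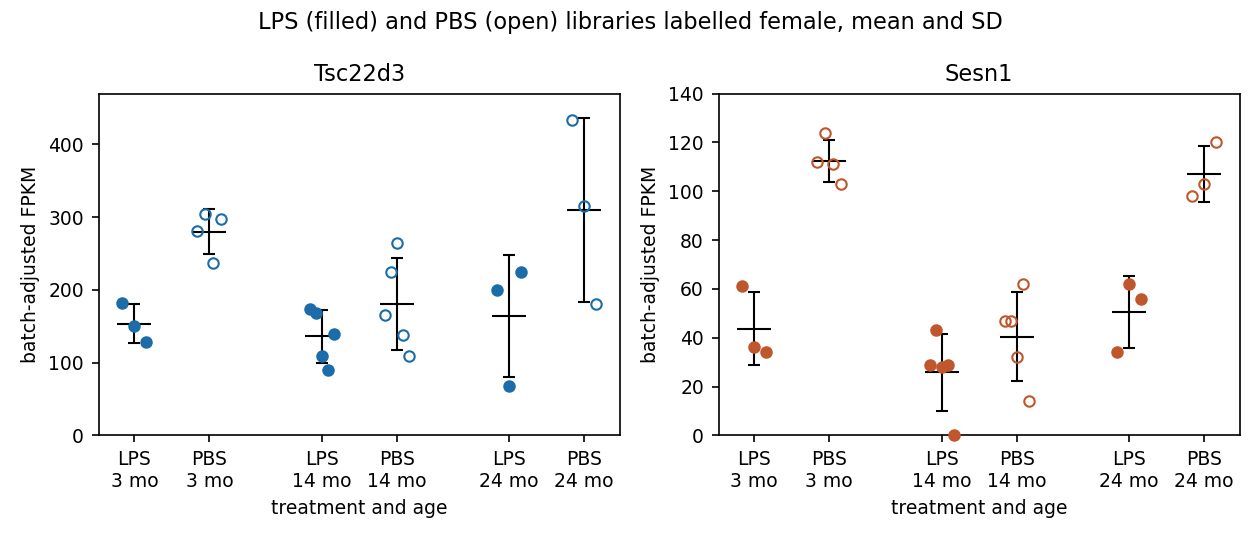
Tsc22d3 (left) and Sesn1 (right) in libraries labelled female of LPS-injected (filled) and PBS-injected (open) mice at 3, 14 and 24 months, as batch-adjusted FPKM, with 1 point per library and bars for the mean and SD. Sesn1 in LPS libraries was between 34 and 62 at 3 and 24 months, against 98 to 124 in PBS libraries, and the groups of 14 months overlapped.

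Sesn1 was lower in LPS libraries at 3 and 24 months without overlap, and at 14 months it was low in both groups. At 3 months it read 61, 36 and 34 in LPS libraries, against 112, 124, 111 and 103 in PBS libraries. Such a separation in this direction was found for 21.7% of genes at that age. At 24 months it read 34, 62 and 56 in LPS libraries, against 98, 103 and 120 in PBS libraries, a separation that 17.2% of genes shared in this direction. At 14 months it read 29, 43, 28, 29 and 0.11 in LPS libraries, against 47, 47, 32, 62 and 14 in PBS libraries. At 3, 14 and 24 months the fitted changes were −1.39 ± 0.74, −1.16 ± 0.61 and −1.10 ± 0.79. The value of 14 months came from LPS replicate 5, which was listed at 0.11 for Sesn1 and at 0 for 50 genes, and without it the change was −0.19. Without the libraries of more than 5 genes at 0 the changes were −1.39 ± 0.33 at 3 months, −0.14 ± 0.32 at 14 months and −1.18 ± 0.43 at 24 months. Among libraries whose Eif2s3y value was nearer their own series they were −1.53 ± 0.56, −0.19 ± 0.30 and −1.54 ± 0.56, again with 1 PBS library at 3 months and 1 LPS library at 24 months.

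The change with LPS at 14 months minus that at 3 months was 0.49 ± 0.44 for Tsc22d3 and 0.23 ± 0.96 for Sesn1 (SE), and that at 24 minus 3 months was −0.13 ± 0.50 and 0.29 ± 1.09. The errors were as large as these differences or larger for all but the first, so no difference of response between ages was resolved with all libraries included. For Sesn1 the difference at 14 months rested on LPS replicate 5 of that age, listed at 0.11. Without that library the change with LPS at 14 months was −0.19, beside −1.39 at 3 months with all libraries. The difference of responses was not computed without it, so a like response of Sesn1 at 3 and 14 months is not shown. LPS libraries of 24 months differed from LPS libraries of 3 months by −0.07 ± 0.36 for Tsc22d3 and 0.22 ± 0.79 for Sesn1. With any 1 library left out these ran between −0.38 and 0.47 for Tsc22d3, both ends set by LPS libraries of 24 months, and between 0.05 and 0.48 for Sesn1.

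The pathways around the 2 genes were followed in 7 lists that hold neither member, of which 93 of 148 genes were measured. A gene was called at an adjusted p under 0.05 in limma (Benjamini-Hochberg over all 5647 genes) with a fold over 1.5. With LPS, 16 were higher and 14 lower at 3 months, 6 higher and 3 lower at 14 months, and 11 higher and 12 lower at 24 months. Of all genes, 6.16% were called higher and 5.08% lower at 3 months, 1.40% and 0.407% at 14 months, and 4.27% and 5.44% at 24 months. The median change over the lists was −0.04, 0.11 and −0.09 at the 3 ages, beside −0.14, 0.02 and −0.15 over all genes. The 23 genes called at 24 months became 10 without LPS replicate 1 or PBS replicate 2 and 12 without PBS replicate 1. The 9 genes called at 14 months became 2 without LPS replicate 3, 4 or 5 or PBS replicate 2, 4 without PBS replicate 4, and 5 without LPS replicate 1 or PBS replicate 3. With libraries whose Eif2s3y value was nearer their own series, the counts of the 3 ages were 3, 2 and 3, with 1 PBS library left at 3 months and 1 LPS library left at 24 months.

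Of 23 measured genes induced by or serving the glucocorticoid receptor, 7 were higher and 7 lower with LPS at 3 months, 1 higher and 1 lower at 14 months, and 6 higher and 3 lower at 24 months. The metallothionein gene Mt2, which buffers metals, averaged 23.3 ± 3.06 in LPS libraries and 1.44 ± 1.33 in PBS libraries at 3 months (SD, n = 3 and 4, limma adjusted p = 0.0020). Il1r2, the decoy receptor of interleukin 1, was higher with LPS by 2.46 ± 0.51 at 3 months and 2.02 ± 0.55 at 24 months (limma adjusted p = 0.0021 and 0.023). Cebpd, an acute-phase transcription factor, was the list's one gene that passed in the same direction at all 3 ages, by 1.74 ± 0.25, 0.79 ± 0.21 and 1.11 ± 0.27. Sgk1, a glucocorticoid-induced kinase, went the way of Tsc22d3, with 100 ± 29.9 in LPS libraries and 235.5 ± 23.9 in PBS libraries at 3 months, and 87.7 ± 12.9 in LPS libraries and 203 ± 22.2 in PBS libraries at 24 months (limma adjusted p = 0.0012 and 0.0068), and had −0.19 ± 0.20 at 14 months without passing. Anxa1, whose product annexin A1 limits leukocyte entry, was lower with LPS at 3 months by a fitted change of −2.05 ± 0.52 (limma adjusted p = 0.0099), and had −0.41 ± 0.43 at 14 months and −0.17 ± 0.55 at 24 months without passing. Members that the hormone is known to induce thus stood on both sides. Nr3c1, the receptor's own gene, passed at 24 months with a change of 0.73, and had −0.36 at 3 months without passing.

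Of the AP-1 and NF-kB subunits, the families that GILZ binds, 10 genes were measured, with 1 higher and 3 lower at 3 and at 24 months and 1 higher at 14 months. Jun, an AP-1 subunit, averaged 370 ± 32.0 in LPS libraries and 680 ± 28.3 in PBS libraries at 3 months, and 321 ± 31.3 in LPS libraries and 782 ± 125 in PBS libraries at 24 months (limma adjusted p = 0.0039 and 0.00071). Fos and Fosb passed in the same direction at both ages, while Nfkb2, an NF-kB subunit, was higher by 1.27 ± 0.32 and 1.07 ± 0.34. Jun and Fos are also genes of the list for the response to tissue dissociation, whose 14 measured genes summed to 6521 to 7264 in LPS libraries and 6303 to 7275 in PBS libraries at 3 months, and to 5633 to 6289 in LPS libraries and 8584 to 9654 in PBS libraries at 24 months. The part of dissociation in these values was not tested. Of the TSC22 relatives and partners, Wnk1, a kinase of cell volume control, was higher (0.93 ± 0.22) and Nrbp1, a pseudokinase partner, was lower (−0.65 ± 0.15) at 24 months.

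The sestrin and mTORC1 list had 14 of 36 genes measured, and Sesn2 and Sesn3 were not analysed here. LPS libraries had higher Seh1l, a GATOR2 subunit (0.71 ± 0.20), and lower Lamtor4, a subunit of the lysosomal scaffold of mTORC1 (−0.64 ± 0.18), at 3 months. At 24 months Akt1s1, an inhibitor within mTORC1 (−1.05 ± 0.28), and Lamtor1 (−0.63 ± 0.19) were lower, and at 14 months 0 passed in limma, with 2 at an unadjusted p under 0.05 and the same fold. Of 9 measured p53 genes, 3 were higher at 3 months, 2 were higher at 14 months and 1 was lower at 24 months. Cdkn1a, the p53 target that arrests the cell cycle, averaged 74.0 ± 6.08 in LPS libraries and 26.8 ± 1.50 in PBS libraries at 3 months, the opposite direction to Sesn1 (limma adjusted p = 0.00016). Of 16 measured FoxO genes, Sod2, the mitochondrial superoxide dismutase, was higher with LPS at all 3 ages (1.60 ± 0.23, 1.28 ± 0.19 and 1.61 ± 0.25). Ccng2, an atypical cyclin, was lower at 3 and 14 months (−1.05 ± 0.24 and −1.09 ± 0.20) and had −0.48 ± 0.25 at 24 months without passing. Of the 18 redox genes, Txnrd1, the thioredoxin reductase, and Bach1, a repressor of Nrf2 targets, were higher and Gpx1, a glutathione peroxidase, was lower at 3 and 24 months.

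**Figure D4:**
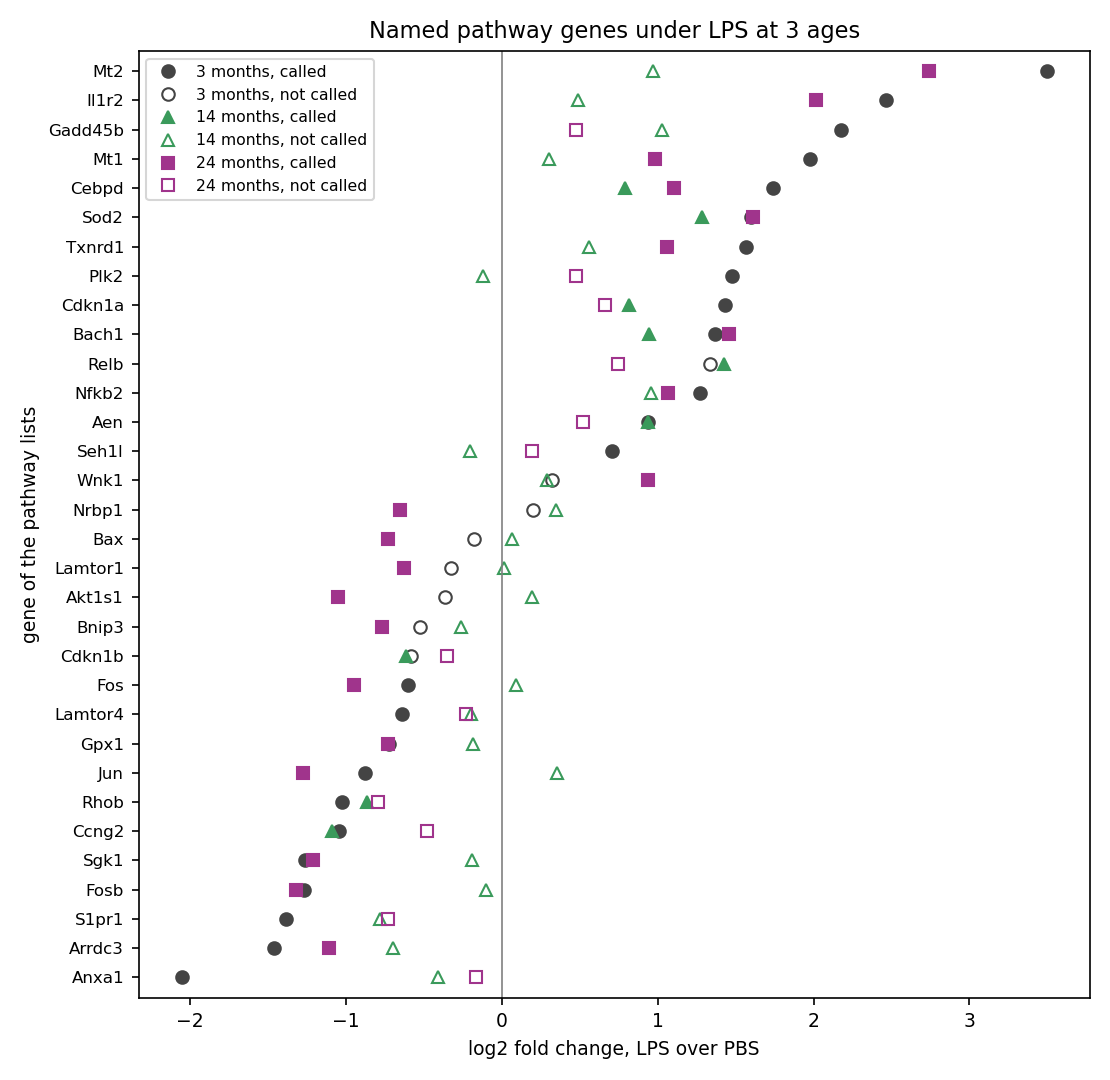
Log2 fold changes, LPS over PBS, of the genes of the 7 pathway lists that the naming rule took, at 3 months (circles), 14 months (triangles) and 24 months (squares), with filled symbols for genes that passed the test. Mt2 had the highest change at 3 months and Anxa1 the lowest (−2.05), and 9 of the 14-month symbols are filled.

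The same lists were counted with age. At 24 against 3 months 2 of 93 were higher and 2 lower in the female series, beside 1.56% and 0.531% of all genes, and 4 were higher and 0 lower in the male series, beside 2.73% and 0.124%. At 16 months 7 were higher and 9 lower in the female series, beside 3.01% and 6.00% of genes, and 12 were higher and 0 lower in the male series, beside 4.52% higher and 1.77% lower genes. At 19 months 5 were higher and 0 lower, beside 2.74% higher and 0.301% lower genes. In the female series the 16 genes of 16 months became 7, 10 and 9 without replicate 1, 3 or 4 of 3 months. The 4 genes of 24 months became 0 without replicate 1 or 2 of either age, 2 without replicate 3 of either age and 1 without replicate 4 of 3 months. In the male series the 12 genes of 16 months became 7 without replicate 4 of 3 months. The 5 genes of 19 months became 3 without replicate 3 or 4 of 3 months or replicate 2 of 19 months, and 8 without replicate 5 of 19 months. The 4 genes of 24 months became 1 without replicate 4 of 3 months or replicate 2 of 24 months, and 2 without replicate 2 of 3 months or replicate 3 or 4 of 24 months. Without the libraries whose Eif2s3y value was nearer the other series, 0 passed at 16 and at 24 months in the female series.

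Cdkn1a was again opposite to Sesn1 at 16 months, with 81.6 ± 24.3 at 16 months and 26.8 ± 1.50 at 3 months in the female series, and 114 ± 56.1 at 16 months and 26.5 ± 7.05 at 3 months in the male series (limma adjusted p = 0.00073 and 0.0035). Gadd45b, a stress-induced FoxO target, was higher at 16 months by 1.89 ± 0.31 in the female series and 2.26 ± 0.45 in the male series. Flcn and Nprl2, which act on the Rag GTPases that recruit mTORC1, were lower at 16 months in the female series (−0.87 ± 0.21 and −0.97 ± 0.28). Il1r2 and Anxa1, both glucocorticoid-induced, were higher at 16, 19 and 24 months in the male series, and at 19 months the changes were 2.33 ± 0.29 and 1.34 ± 0.27. The summed neutrophil markers of this series were also higher at each of these ages than at 3 months. The part of neutrophils in the changes of Il1r2 and Anxa1 was not tested. Tsc22d3 had 0.68 ± 0.30 at 19 months, but −0.60 ± 0.31 at 16 months and −0.24 ± 0.31 at 24 months. Dusp1, a glucocorticoid-induced phosphatase, was higher (0.97 ± 0.23) and Nr3c1 lower (−0.67 ± 0.18) at 24 months in the female series. Dusp1 is also on the dissociation list, of which Hspa1a (1.04 ± 0.28) and Atf3 (0.88 ± 0.22) passed in this comparison and whose measured genes summed to 8584 to 9654 at 24 months and 6303 to 7275 at 3 months. The part of dissociation here was not tested. Gsr, glutathione reductase, was higher at 16, 19 and 24 months in the male series.

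Markers of other cells differed between several of these groups. In the male series the summed neutrophil markers were between 2876 and 4773 at 3 months, 2266 and 3506 at 6 months, 1398 and 1954 at 9 months, 7833 and 12745 at 12 months, 9363 and 32481 at 16 months, 7383 and 13659 at 19 months and 5755 and 10772 at 24 months. At 19 against 3 months 12 of 15 were called higher. In the same series the 8 measured monocyte and macrophage markers summed to 1544 to 2479 at the ages of 3 to 9 months and to 3657 to 7212 at the ages of 12 to 24 months. Both sums were thus higher at every age from 12 months on than at any earlier age, a span that holds the ages of low Sesn1 and also that of 24 months. In the female series the neutrophil sums were between 7092 and 18827 at 3 months, 2330 and 5392 at 6 months, 499 and 5765 at 9 months, 2023 and 5417 at 12 months, 2323 and 6628 at 14 months, 2729 and 15720 at 16 months and 3295 and 8689 at 24 months. With LPS they were at 2214 to 3836 in LPS libraries and 7092 to 18827 in PBS libraries at 3 months, where 9 of 15 were called lower, and at 4083 to 16264 in LPS libraries and 3295 to 8689 in PBS libraries at 24 months, where 3 were called higher. The 12 microglia markers summed to 27283 to 28871 at 3 months, 18923 to 20965 at 14 months, 17413 to 23172 at 16 months and 19287 to 22749 at 24 months in the female series. In LPS libraries they summed to 20116 to 23956 at 3 months, 16979 to 20600 at 14 months and 16632 to 22272 at 24 months. In the male series the sums were 24993 to 27127 at 3 months, 19357 to 24218 at 6 months and 25919 to 28143 at 9 months. At the later male ages they were 19657 to 21879 at 12 months, 16449 to 20565 at 16 months, 17833 to 22113 at 19 months and 18081 to 20538 at 24 months. The 4 measured T and NK cell markers summed to 249 to 376 at 24 months and 48 to 57 at 3 months in the female series, and all 4 were called higher. Beyond these values, the part of other cells in the levels of Tsc22d3, Sesn1 and the named pathway genes, among them Il1r2 and Anxa1 with age and with LPS, was not tested.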

How the data were processed

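RNA of sorted microglia from 64 mice was sequenced. By the authors' account, reads cleaned with SOAPnuke went to HISAT2 2.0.4 (genome mm10) and Bowtie2 2.2.5 (transcripts), and RSEM 1.2.12 gave FPKM per gene. ComBat_seq then adjusted every library in 1 run, and genes averaging under 10 were dropped. The batches are not named in the sources used here. The deposited values are a score, this adjusted FPKM as whole numbers apart from 297 fractional values, and are not counts. Library sums were 408457 to 554459. Read depth is unknown, so no counting interval was computed, and the number of libraries limits the precision.

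Libraries were grouped by the sex, age and treatment in their labels. Values were taken as log2(value + 1) and fitted over all groups of a series (female PBS, male PBS, or the LPS experiment) with limma 3.58.1 in R 4.3.3 with a variance trend, a procedure tested on simulated data. Genes were called at a Benjamini-Hochberg adjusted p under 0.05 and a fold over 1.5. Members and lists were chosen with earlier results of these data known. Named genes were the 2 members, up to 4 called genes with the largest change per list and comparison, also given in other comparisons of the same list, and the 5 genes most like each member. Correlations and figures used Python 3.11.15 with numpy 2.4.6, pandas 2.3.3, SciPy 1.17.1 and matplotlib 3.10.9. Other settings were a pseudocount of 0.5 or 5, only genes with a mean of 50 or more, 2 scalings, 2 variance models, groups fitted alone, a replicate block, unadjusted p, each library left out and 3 sets of libraries. Promoter windows are from RefSeq on GRCm38.p6 and transcripts from GENCODE vM21 on GRCm38, the assembly that mm10 names. For libraries that share a replicate number in their labels, the median correlation of residuals was 4.3e-05 (female fit), −0.0044 (male fit) and 0.014 (LPS fit). Single correlations ran from −0.25 to 0.22, −0.32 to 0.40 and −0.19 to 0.21 in the same order. These libraries were not treated as paired.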

Additional observations from a re-analysis of the deposited data

Results flagged for a closer look

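In the male PBS series at 9 months, replicate 1 read 158 for Sesn1 while the other 3 libraries read 85, 85 and 94, a gap of 0.877 of the group's range. It was the one value that stood apart among 22 sets of 4 or 5 libraries (a gene in a group) examined over the 2 genes, and chance gives about 1 in 20. Without it, the change from 3 to 9 months was 0.18.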

How the results depend on the processing

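Of the values of Tsc22d3 and Sesn1 recomputed under other settings, 969 stayed within 1 SD of replicates, 8 moved further and 3 turned in sign from a change of over 1.5-fold. The sign differed for 40 of the 980 values when smaller changes are counted too. That SD was between 0.49 and 1.16 on the log2 scale, depending on gene and fit, so large moves also fell within it. Sesn1 with LPS at 14 months moved from −1.16 to −0.19 without LPS replicate 5 and was still counted as within 1 SD. The count of values within 1 SD is therefore no measure of stability. Left-out libraries moved Sesn1 at 9 against 3 months in the female series between −1.74 and 0.040, Sesn1 at 6 against 3 months in the male series between −1.09 and 0.046, Tsc22d3 with LPS at 24 months between −1.34 and −0.46, and Tsc22d3 at 24 against 3 months among LPS libraries between −0.38 and 0.47. For the last, libraries whose Eif2s3y value was nearer their own series gave 0.52 and libraries with at most 5 values of 0 gave 0.47. These libraries with at most 5 values of 0 gave 0.040 for Sesn1 at 9 months in the female series. Both sets were chosen after seeing the data. Among libraries nearer their own series no male library of 24 months is left, so that setting has no value there.

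The counts of called pathway genes were less stable. In the order of 16 and 24 months female, 16, 19 and 24 months male, and LPS at 3, 14 and 24 months, they were 16, 4, 12, 5, 4, 30, 9 and 23. Left-out libraries gave 7 to 16, 0 to 2, 7 to 13, 3 to 8, 1 to 4, 22 to 29, 2 to 11 and 10 to 21. With genes of a mean of 50 or more they were 7, 2, 5, 2, 2, 13, 2 and 10, where fewer genes were tested. Unadjusted p gave 26 and 12 in the female series, 19, 15 and 12 in the male series and 18 for LPS at 14 months. Groups fitted alone gave 9 at 24 months female, and 1 and 8 for LPS at 14 and 24 months. Both scalings gave 1 at 24 months male. Libraries without values between 0 and 1 gave 7, 1 and 1 in the male series. Libraries whose Eif2s3y value was nearer their own series gave 0 and 0 in the female series and 3, 2 and 3 for LPS, and those with at most 5 values of 0 gave 3 for LPS at 14 months. Apart from the settings with fewer genes or libraries, the cause was not tested.

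The libraries were not treated as paired by the replicate numbers of their labels. The sample descriptions number some libraries otherwise, and pairing by those numbers was not tested. With the replicate numbers of the labels as a block, the counts were 14, 3, 14, 7, 4, 32, 9 and 23. For Tsc22d3 and Sesn1 the change at 24 against 3 months was then 0.05 and 0.06 in the female series and −0.24 and −0.28 in the male series. With LPS it was −0.97 and −1.37 at 3 months, −0.38 and −1.16 at 14 months and −1.0 and −1.10 at 24 months. With 2 to 5 libraries a group and SEs of 0.28 to 0.79, differences under 1 on the log2 scale were often not resolvable.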
